A study of Mus musculus with 8 samples.

Results

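Ccr6, Cxcr6, Ccr9, Ccr4, Cxcr3, Cxcr4 and Ccrl2 encode receptors that place T cells in tissues, and their mRNA was followed here in mouse Tfh (T follicular helper) cells, the CD4+ T cells of germinal centres, after sorting. The 7 genes were taken by symbol from the deposited count tables, where each had 1 row, out of 16735 genes that both tables held. RNA-seq had been made from Tfh cells of K/BxN mice, which develop arthritis spontaneously. All were Th17 fate-mapping mice, in which a cell that has once entered the Th17 state stays marked by fluorescent ZsGreen. The sources used here give neither the gene that drives the reporter, nor the animals' age, nor whether animals were pooled. CD4+ T cells were enriched from spleen or from Peyer's patch, where Tfh cells help B cells in the gut wall, and CD4+ TCRβ+ CD25- CXCR5+ PD-1+ cells were sorted as ZsGreen+ or ZsGreen-. The 4 groups were therefore Peyer's patch ZsGreen-, Peyer's patch ZsGreen+, spleen ZsGreen- and spleen ZsGreen+, with 2 libraries each. Replicate 1 of every group came from experiment 1 and replicate 2 from experiment 2.

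Chemokine receptors are G protein-coupled receptors with 7 membrane-spanning helices that move leukocytes along gradients of small secreted proteins. CCR6 follows CCL20, which the epithelium over Peyer's patch follicles secretes, and is a standing marker of Th17 cells. CXCR6 binds CXCL16 and is found on T cells that stay in tissue, CCR9 binds CCL25 of the small intestine, and CCR4 binds CCL17 and CCL22 and is known for homing to skin. CXCR3 follows CXCL9, CXCL10 and CXCL11, the interferon-induced ligands of type 1 inflammation. CXCR4 follows CXCL12 and, in germinal centres, draws cells to the dark zone. CCRL2 is an atypical receptor that binds chemerin (Rarres2) and presents it without the usual G protein signal.

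Ccr6, Cxcr6, Ccr9 and Ccr4 were the members that were higher in ZsGreen+ than in ZsGreen- cells of the spleen, so the 250 bases before their annotated starts are given as context for the transcription factors described further on. The sequences are RefSeq's on build GRCm38.p6, read 5′ to 3′ along the gene, at chr17:8235793-8236042 (plus strand, the first of the pair of starts listed for Ccr6), chr9:123806227-123806476 (plus, Cxcr6), chr9:123766961-123767210 (plus, Ccr9) and chr9:114496545-114496794 (minus, Ccr4). Capitals mark the reverse complement of AGGTCA, the core sequence bound by retinoic acid receptors and other nuclear receptors.
Ccr6: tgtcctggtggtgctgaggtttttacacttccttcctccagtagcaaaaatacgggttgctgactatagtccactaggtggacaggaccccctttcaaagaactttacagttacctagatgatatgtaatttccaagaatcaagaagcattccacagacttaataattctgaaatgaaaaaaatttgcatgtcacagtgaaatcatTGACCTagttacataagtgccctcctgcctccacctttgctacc
Cxcr6: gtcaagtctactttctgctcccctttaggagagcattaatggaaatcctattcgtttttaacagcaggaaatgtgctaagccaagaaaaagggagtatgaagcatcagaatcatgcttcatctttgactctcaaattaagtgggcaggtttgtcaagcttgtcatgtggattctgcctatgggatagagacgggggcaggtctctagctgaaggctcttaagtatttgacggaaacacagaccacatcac
Ccr9: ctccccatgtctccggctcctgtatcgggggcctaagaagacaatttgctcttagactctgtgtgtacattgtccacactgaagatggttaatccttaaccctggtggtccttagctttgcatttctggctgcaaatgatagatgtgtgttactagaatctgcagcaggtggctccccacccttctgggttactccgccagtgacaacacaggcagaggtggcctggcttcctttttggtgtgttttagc
Ccr4: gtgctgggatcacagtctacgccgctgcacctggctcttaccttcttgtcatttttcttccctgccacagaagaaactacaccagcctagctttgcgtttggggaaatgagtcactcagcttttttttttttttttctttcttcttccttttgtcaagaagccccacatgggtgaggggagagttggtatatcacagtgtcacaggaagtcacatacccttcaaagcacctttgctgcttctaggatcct

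AGGTCA, searched on both strands of these 250-base windows, was present in the Ccr6 window alone among the 7 genes, and in 14.0% of 32851 RefSeq promoters. It lay 44 to 39 bases before the Ccr6 start on the reverse strand. The T-box core AGGTGT was in none of the windows of the 7 genes and in 11.8% of all promoters. The sequence AGATAA, known from binding by GATA3 and its relatives, was in 9.99% of all promoters and, among the 7 genes, in the other Ccr6 window and in Ccrl2. A match is a description of the letters and not of binding.

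Levels are CPM, the share of a library's counts that a gene takes, after TMM scaling, a correction for library composition. A log2 fold change and its standard error (SE) come from 1 edgeR quasi-likelihood model of all 8 libraries, with a mean for each group and a term for the experiment. An adjusted p is that test's p after Benjamini-Hochberg adjustment over the 14418 genes tested, all 7 members included, and a gene was called under 0.05. The 5 comparisons described share libraries and are not independent of each other. Nothing in the labels says that replicates came from separate animals, so the p-values cover only the spread among these libraries, part of which may be technical. The libraries held 10009823 to 15323743 estimated counts.

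The label Tfh was checked on its markers: Cd4 ranged from 673 to 1356 CPM, Cxcr5 from 105 to 802 and Bcl6 from 16.6 to 244 over the 8 libraries. Cxcr5 (124 and 105 CPM) and Bcl6 (82.8 and 16.6 CPM) were lowest in spleen ZsGreen+ cells in both experiments. Of 14 T cell and Tfh markers, 0 were called higher and 4 lower in spleen ZsGreen+ than ZsGreen- cells (Cd3e, Cxcr5, Sh2d1a and Tox2). None was called by the sort in Peyer's patch. Among ZsGreen+ cells 6 were called higher in Peyer's patch than in spleen and 0 lower. The 6 Th17 markers given here, all in both tables, summed to 144 to 175 CPM in Peyer's patch ZsGreen- and 345 to 374 CPM in Peyer's patch ZsGreen+ cells. In spleen they summed to 64.3 to 159 CPM in ZsGreen- and 672 to 2089 CPM in ZsGreen+ cells, so the sums did not overlap in either tissue. Il1r1 made up most of the sum in Peyer's patch ZsGreen- cells, at 172 and 106 CPM in experiments 1 and 2. It was at 346 and 130 CPM in Peyer's patch ZsGreen+ cells and was not called there. Of the 6, 1 was called higher in Peyer's patch ZsGreen+ cells (Il23r). In spleen 5 were called higher (Il17a, Il17f, Il23r, Ccl20 and Il1r1), and none was called lower in either tissue. The Y-linked gene Ddx3y was at 2.45 and 0 CPM in the ZsGreen- libraries of Peyer's patch and spleen in experiment 1 and at 18.9 and 19.9 CPM in their ZsGreen+ partners, and between 20.1 and 36.6 CPM in experiment 2. Y-linked RNA thus differed with the sort in experiment 1. Xist, listed beside it as a check of sex, was at 801 to 1389 CPM in experiment 1 and 87.8 to 151 CPM in experiment 2. It was called lower in spleen ZsGreen+ than ZsGreen- cells (log2 fold change -0.66, adjusted p = 0.0332). Among ZsGreen+ cells it was called higher in Peyer's patch than in spleen (0.77, adjusted p = 0.0113). The part of Y-linked RNA or Xist in the receptor values was not tested.

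In both tissues ZsGreen+ cells held more Ccr6 and Cxcr6, Ccr9 and Ccr4 were also called higher in spleen, and Cxcr3, Cxcr4 and Ccrl2 were called in neither tissue. In Peyer's patch 2 of the 7 were called higher and 0 lower, against 0.284% of all genes tested called higher and 0.153% lower. In spleen 4 of the 7 were called higher and 0 lower, against 4.53% and 4.09%. None of the 7 was lower in either tissue at an unadjusted p under 0.05 in edgeR, and DESeq2 called none lower after adjustment. The median log2 fold change of the 7 was 0.59 in Peyer's patch and 1.13 in spleen, beside 0.0016 and -0.031 over all genes tested.

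**Figure D1:**
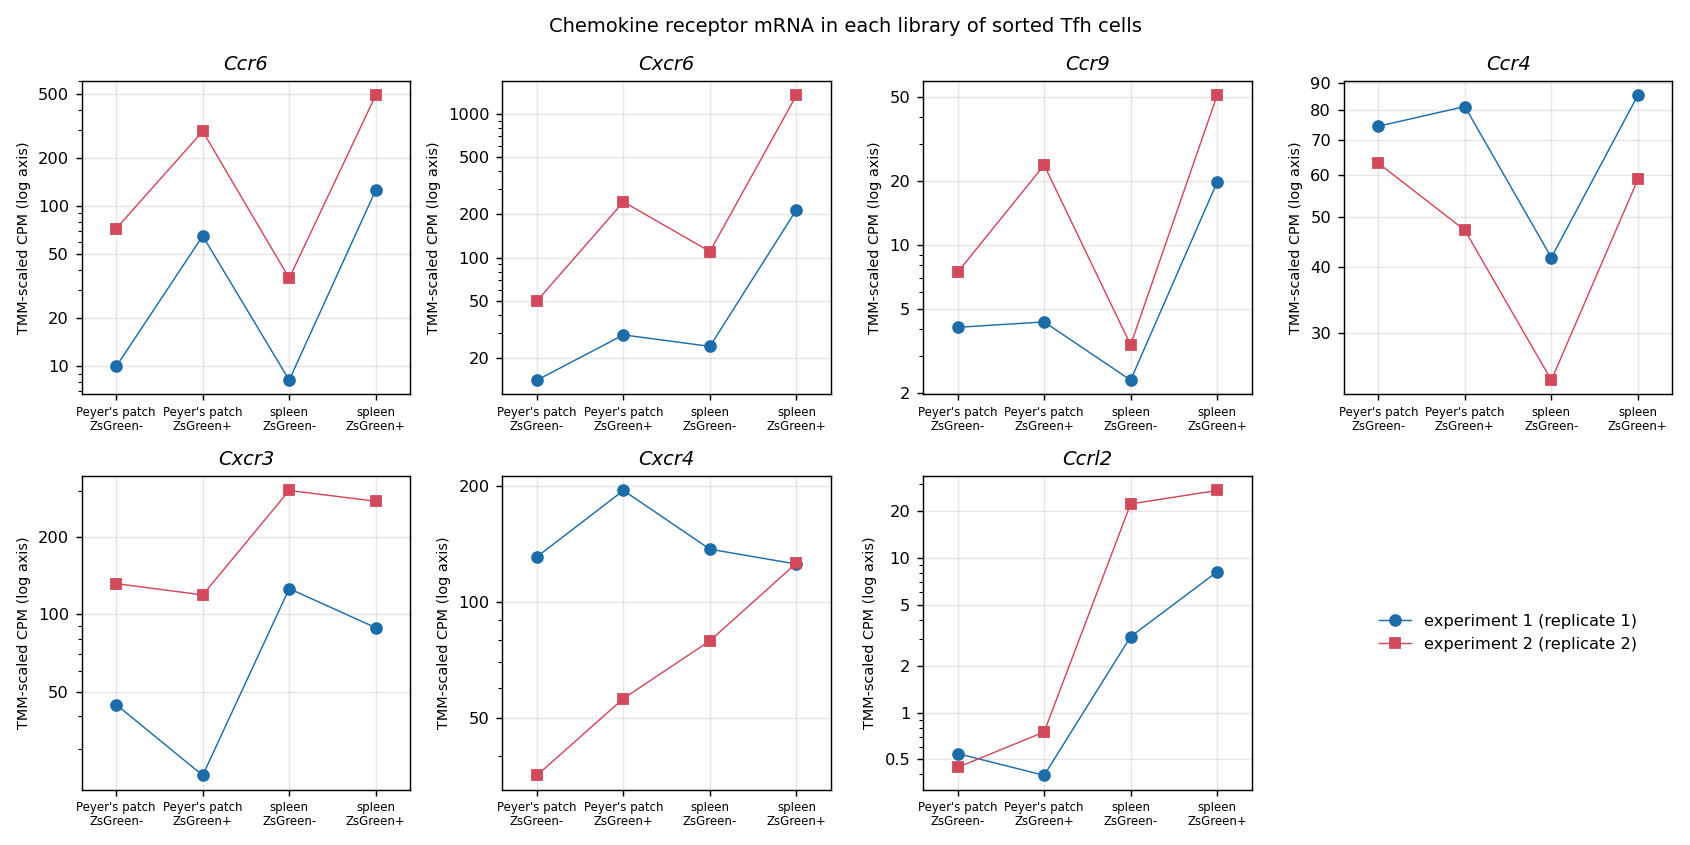
TMM-scaled CPM of the 7 receptor genes (log axis) in the 4 groups, with a line for each experiment joining its 4 libraries (circles, experiment 1; squares, experiment 2). Ccr6, Cxcr6, Ccr9 and Ccrl2 peak in spleen ZsGreen+ cells in both experiments and Ccr4 dips in spleen ZsGreen- cells. Cxcr3 and Ccrl2 lie higher in spleen than in Peyer's patch.

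Ccr6 showed the largest separation by ZsGreen. In Peyer's patch it was at 9.96 CPM in ZsGreen- and 65.0 CPM in ZsGreen+ cells of experiment 1, and at 72.3 and 293 CPM in experiment 2. In spleen the levels were 8.18 and 126 CPM in experiment 1 and 35.4 and 492 CPM in experiment 2. Within each experiment the order was the same, spleen ZsGreen- lowest, then Peyer's patch ZsGreen-, Peyer's patch ZsGreen+ and spleen ZsGreen+, while the Peyer's patch groups overlapped across experiments because experiment 2 was higher throughout. The log2 fold change of ZsGreen+ over ZsGreen- cells was 2.31 ± 0.20 (SE, adjusted p = 0.000613) in Peyer's patch, a 4.97-fold difference. The spleen value was 3.88 ± 0.21 (adjusted p = 5.51e-06), a 14.7-fold difference. Ccr6 had rank 3 by p among all genes tested in both tissues, and both calls were kept when any 1 library was left out.

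Cxcr6 reached the highest level of the 7, per length of exon as well. In Peyer's patch it was at 14.0 and 29.0 CPM in ZsGreen- and ZsGreen+ cells of experiment 1 and at 49.96 and 245 CPM in experiment 2. Spleen cells held 24.1 and 215 CPM in experiment 1 and 110 and 1350 CPM in experiment 2. Spleen ZsGreen+ was the highest library of its experiment each time, and the lower of its replicates still exceeded every spleen ZsGreen- and all but 1 Peyer's patch library. The log2 fold change was 3.39 ± 0.28 in spleen (SE, adjusted p = 0.000335) and 1.70 ± 0.27 in Peyer's patch (adjusted p = 0.0482). The Peyer's patch difference was 1.04 on the log2 scale in experiment 1 and 2.29 in experiment 2. That call was lost when any library except Peyer's patch ZsGreen+ replicate 1 was left out, with adjusted p from 0.0581 without Peyer's patch ZsGreen+ replicate 2 to 0.205 without Peyer's patch ZsGreen- replicate 2, and the log2 fold change then lay between 1.23 and 2.09.

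Ccr9 was the least abundant of the 4, per length of exon as well. Peyer's patch libraries were at 4.08 CPM in ZsGreen- and 4.33 CPM in ZsGreen+ cells in experiment 1 and at 7.42 and 23.8 CPM in experiment 2. In spleen the values were 2.30 and 19.8 CPM in experiment 1 and 3.37 and 50.7 CPM in experiment 2. The spleen groups did not overlap, whereas the Peyer's patch groups did, and only experiment 2 separated them. The spleen log2 fold change was 3.43 ± 0.42 (SE, adjusted p = 0.0019), and 4.02 without spleen ZsGreen- replicate 1. In Peyer's patch it was 0.99 ± 0.39 (adjusted p = 0.55), with differences of 0.082 and 1.66 in the experiments. Without Peyer's patch ZsGreen+ replicate 1 that value was 1.60 and passed the threshold (adjusted p = 0.0438), and without replicate 2 of the same group it was 0.14 (adjusted p = 0.94).

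Ccr4 differed by ZsGreen in spleen. Its spleen levels were 41.8 and 85.2 CPM in ZsGreen- and ZsGreen+ cells of experiment 1 and 24.4 and 58.9 CPM in experiment 2. In Peyer's patch they were 74.4 and 81.1 CPM in experiment 1 and 63.3 and 47.1 CPM in experiment 2. The spleen ZsGreen- libraries were the lowest of their experiment, and the other 3 groups overlapped. The log2 fold change was 1.13 ± 0.16 in spleen (SE, adjusted p = 0.00145), a 2.196-fold difference, and -0.15 ± 0.15 in Peyer's patch (adjusted p = 0.88). CCR4 is also carried by regulatory T cells. The 5 markers of these cells, all in both tables and none at 0 throughout, summed in spleen to 468 and 579 CPM in ZsGreen- and to 298 and 914 CPM in ZsGreen+ cells of experiments 1 and 2. Of these, 1 was called higher in spleen ZsGreen+ cells (Il2ra, the IL-2 receptor alpha chain, from 4.97 to 20.7 and from 3.22 to 13.6 CPM) and 3 lower. The lower ones were Ikzf2, Gpr83 and the lineage factor Foxp3, which went from 34.2 to 12.1 CPM in experiment 1 and from 18.1 to 3.17 CPM in experiment 2. Ctla4 was not called and was higher in ZsGreen+ cells in both experiments. The part of such cells in the Ccr4 values was not tested.

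Cxcr3 was not called by the sort in either tissue. Peyer's patch held 44.5 and 23.6 CPM in ZsGreen- and ZsGreen+ cells of experiment 1 and 131 and 119 CPM in experiment 2. Spleen held 126 and 88.5 CPM in experiment 1 and 302 and 274 CPM in experiment 2. ZsGreen+ cells were the lower of each pair, by -0.49 ± 0.22 on the log2 scale (SE, adjusted p = 0.615) in Peyer's patch and -0.34 ± 0.21 (adjusted p = 0.405) in spleen.

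Cxcr4 gave the least repeatable pattern. In experiment 1 the levels of Peyer's patch ZsGreen-, Peyer's patch ZsGreen+, spleen ZsGreen- and spleen ZsGreen+ were 131, 195, 137 and 126 CPM, and in experiment 2 they were 35.6, 56.3, 79.4 and 126 CPM. The order of the groups differed between the experiments, with spleen ZsGreen+ lowest in experiment 1 and highest in experiment 2. The log2 fold change by sort was 0.59 ± 0.56 (SE, adjusted p = 0.878) in Peyer's patch and 0.36 ± 0.57 (adjusted p = 0.785) in spleen. In spleen the differences in the experiments had opposite signs, -0.13 and 0.67.

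Ccrl2 was near the limit of detection in Peyer's patch, where the 4 libraries held 10, 7, 4 and 10 counts (0.394 to 0.750 CPM). Spleen ZsGreen- and ZsGreen+ cells were at 3.10 and 8.15 CPM in experiment 1 and 22.4 and 27.3 CPM in experiment 2. The sorts were not separated in either tissue, with log2 fold changes of -0.10 ± 0.79 (SE, adjusted p = 0.988) in Peyer's patch and 0.74 ± 0.43 (adjusted p = 0.368) in spleen. The spleen value was 0.080 without spleen ZsGreen- replicate 1 and 1.68 without spleen ZsGreen- replicate 2.

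Bulk RNA cannot tell fewer receptor-bearing cells apart from less receptor RNA per cell, in these and all later comparisons. The study defined its signatures by a 1.5-fold cut-off with p under 0.05, taken here as unadjusted. By that criterion 3 of the 7 were higher in Peyer's patch ZsGreen+ cells (Ccr6, Cxcr6 and Ccr9), against 2.64% of all genes. In spleen the 4 called genes passed it, against 6.40%. None of the 7 passed it in the lower direction in either tissue, against 1.95% and 7.47%. Between tissues, 2 of the 7 passed it as higher in Peyer's patch (Ccr6 and Ccr4) and 3 as lower (Cxcr6, Cxcr3 and Ccrl2) among ZsGreen- cells, against 4.11% and 7.37% of all genes. Among ZsGreen+ cells 0 passed as higher and 5 as lower, against 8.77% and 9.15%.

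Markers of γδ T cells and innate lymphoid cells, which can also carry CCR6, CXCR6 and CCR9, had higher sums in ZsGreen+ cells, but did not share 1 direction. The 8 markers, all present in both tables and none at 0 throughout, summed to 87.4 to 97.0 CPM in Peyer's patch ZsGreen-, 140 to 152 in Peyer's patch ZsGreen+, 156 to 281 in spleen ZsGreen- and 367 to 672 in spleen ZsGreen+ cells. Rora, which Th17 cells also express, made up most of the sum in spleen ZsGreen+ cells, at 214 and 566 CPM. In spleen ZsGreen- cells Rora was at 84.0 and 153 CPM. Of the 8, 1 was called higher in Peyer's patch ZsGreen+ cells (Kit) and 0 lower, and in spleen 3 were called higher (Kit, Rora and Blk) and 1 lower (Trdc). In spleen 7 of the 8 were higher in ZsGreen+ cells in both experiments. The γδ receptor constant regions did not move together: Trgc1 was higher in ZsGreen+ cells in all 4 pairs, from 0.381 to 1.24 and 1.99 to 37.5 CPM in Peyer's patch and from 1.44 to 7.03 and 5.67 to 11.8 CPM in spleen, without being called. Trdc was lower in ZsGreen+ cells in all 4 pairs, from 14.5 to 2.70 and 24.4 to 5.78 CPM in Peyer's patch and from 13.7 to 4.58 and 89.4 to 13.1 CPM in spleen. B cells carry CCR6 and CXCR4 too. The 11 B cell markers summed to at most 175 CPM in spleen ZsGreen+ cells and to 240 to 734 CPM in the other 6 libraries. Most of that sum was Ighm. Cd22 and Pax5 followed at up to 51.6 and 37.0 CPM, and the other markers reached at most 6.97 CPM (Ighd). In spleen 2 of the 11 were higher and 5 lower in ZsGreen+ cells in both experiments, with Ighm and Cd22 called lower. In Peyer's patch 4 were higher and 3 lower in both experiments, with Cd22 called lower. Any part of such cells in the receptor values was not tested beyond these levels.

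**Figure D2:**
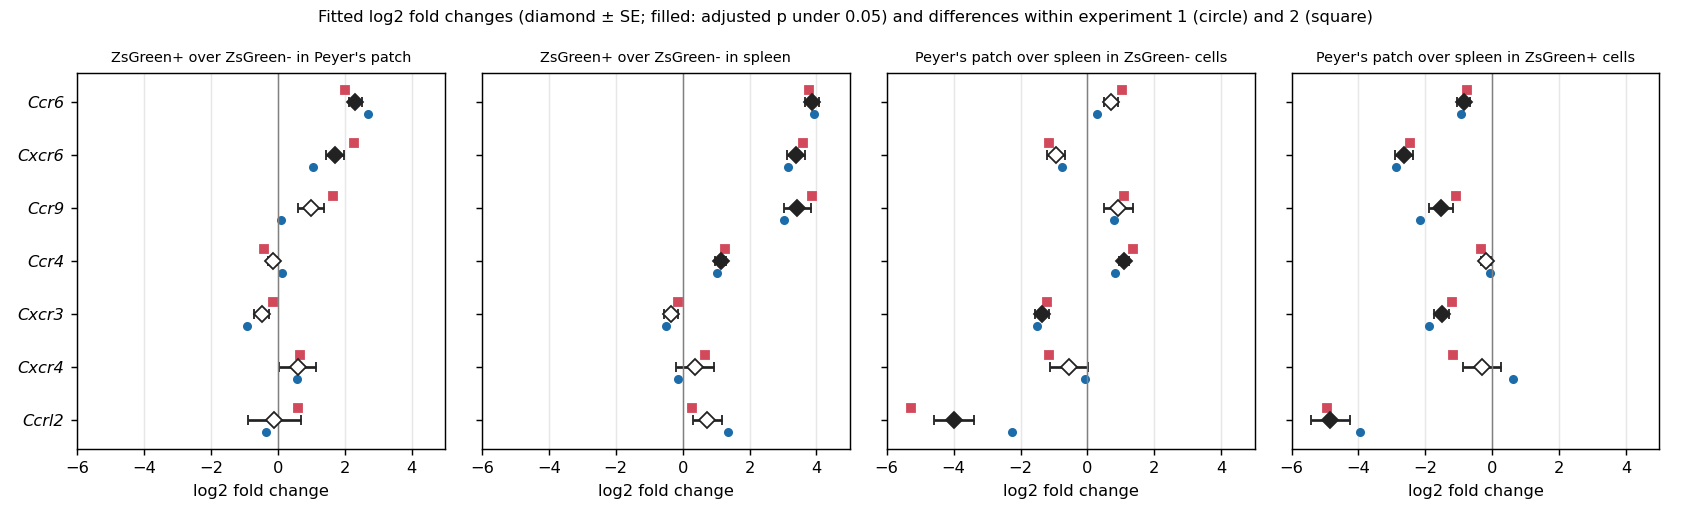
Fitted log2 fold changes of the 7 genes in the sort and tissue comparisons (diamonds with SE, filled where the adjusted p was under 0.05), with the difference within experiment 1 (circles) and experiment 2 (squares). Ccr6 and Cxcr6 are filled to the right of 0 in both sorts, and Cxcr3 and Ccrl2 are filled to the left of 0 in both tissue comparisons.

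The sort differences of 4 receptors were larger in spleen than in Peyer's patch, but none of these gaps passed the test of the difference itself. Peyer's patch minus spleen was -1.56 ± 0.27 on the log2 scale for Ccr6 (SE, adjusted p = 0.0658), -1.69 ± 0.37 for Cxcr6 (adjusted p = 0.184), -2.44 ± 0.56 for Ccr9 (adjusted p = 0.194) and -1.28 ± 0.22 for Ccr4 (adjusted p = 0.0605). edgeR called 0 of the 7, against 0.0971% of all genes in either direction, and 4 had an unadjusted p under 0.05. DESeq2 called those 4, with adjusted p of 0.000398 for Ccr6, 0.00212 for Cxcr6, 0.0105 for Ccr9 and 0.00119 for Ccr4. It also called more of the 14418 genes than edgeR in the sorts, 147 against 63 in Peyer's patch and 1494 against 1243 in spleen. The share of all genes that DESeq2 called for the difference is not given here. With 1 library left out, edgeR called Ccr6 without Peyer's patch ZsGreen- replicate 1, spleen ZsGreen- replicate 1 or spleen ZsGreen+ replicate 2, Ccr4 without spleen ZsGreen- replicate 1, and Cxcr6 and Ccr9 without Peyer's patch ZsGreen+ replicate 2 (adjusted p from 0.0083 to 0.0498). The same 4 genes met the study's criterion in the lower direction and none in the higher, against 2.93% and 3.86% of all genes. Cxcr3, Cxcr4 and Ccrl2 had differences of -0.15, 0.23 and -0.84, with adjusted p from 0.889 to 0.977.

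Between tissues, Ccrl2 and Cxcr3 were lower in Peyer's patch than in spleen whichever way the cells were sorted. Among ZsGreen- cells, 1 of the 7 was called higher in Peyer's patch (Ccr4) and 2 lower (Cxcr3 and Ccrl2), against 1.82% and 3.68% of all genes tested. Among ZsGreen+ cells, 0 were called higher and 5 lower (Ccr6, Cxcr6, Ccr9, Cxcr3 and Ccrl2), against 5.51% and 7.17%, and none was higher at an unadjusted p under 0.05 in edgeR or called higher by DESeq2. The median log2 fold change of Peyer's patch over spleen was -0.54 and -1.51 for the 7 genes, beside 0.0031 and 0.015 for all genes.

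Ccrl2 had the largest tissue difference of the 7. Its log2 fold change of Peyer's patch over spleen was -4.00 ± 0.60 in ZsGreen- cells (SE, adjusted p = 0.00428) and -4.84 ± 0.58 in ZsGreen+ cells (adjusted p = 0.000541). Every spleen library exceeded every Peyer's patch library. The size rested on 4 to 10 counts in the Peyer's patch libraries, and in ZsGreen- cells it moved to -5.31 without Peyer's patch replicate 1, -2.95 without Peyer's patch replicate 2, -4.69 without spleen replicate 1 and -3.10 without spleen replicate 2. CCRL2 is best known from myeloid cells, and the 10 of 12 myeloid and dendritic markers present in both tables, none at 0 throughout, summed to 30.9 to 41.9 CPM in Peyer's patch and 10.4 to 26.1 CPM in spleen. Lyz2 was the largest part of the sum in Peyer's patch, at 15.7 to 26.8 CPM, and the markers did not share 1 direction. In ZsGreen- cells 4 of the 10 were higher and 5 lower in Peyer's patch in both experiments, with none called. In ZsGreen+ cells 3 were higher and 4 lower in both, with Lyz2 and Cd68 called higher and Itgam called lower, as Ccrl2 was. The part of such cells in the Ccrl2 values was not tested.

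Cxcr3 was lower in Peyer's patch by a log2 fold change of -1.36 ± 0.22 in ZsGreen- cells (SE, adjusted p = 0.00622) and -1.51 ± 0.22 in ZsGreen+ cells (adjusted p = 0.00179). Within each experiment both Peyer's patch libraries were below both spleen libraries, and across experiments they overlapped. Leaving out Peyer's patch ZsGreen- replicate 1 or 2 ended the call in ZsGreen- cells (adjusted p = 0.113 and 0.139). Cytotoxic cells also carry CXCR3, and the 4 of 6 markers of CD8 T and NK cells present in both tables summed to 50.2 to 80.3 CPM in Peyer's patch and 19.4 to 38.6 CPM in spleen. Klrb1c was the largest part of that sum, at 43.7 to 67.2 CPM in Peyer's patch and 15.8 to 23.5 CPM in spleen. It was called higher in Peyer's patch in both sorts. Its log2 fold changes were 1.69 in ZsGreen- cells (adjusted p = 0.00012) and 1.40 in ZsGreen+ cells (adjusted p = 0.000168). Cd8b1 had log2 fold changes of -0.44 and -0.15 in ZsGreen- and ZsGreen+ cells and was not called, and Gzma had -0.44 in ZsGreen- cells and was called higher in Peyer's patch among ZsGreen+ cells. The part of such cells in the Cxcr3 values was not tested.

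Cxcr6 was lower in Peyer's patch ZsGreen+ than in spleen ZsGreen+ cells by -2.64 ± 0.27 on the log2 scale (SE, adjusted p = 0.000467). In ZsGreen- cells the value was -0.95 ± 0.27 and missed the threshold (adjusted p = 0.0903), while DESeq2 called it (adjusted p = 0.012), as edgeR did without Peyer's patch ZsGreen- replicate 1 (0.0456) or either Peyer's patch ZsGreen+ library (0.0122 and 0.0106). The tissue order of Cxcr6 was thus the same in both sorts.

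Ccr6, Ccr9 and Ccr4 had tissue differences of opposite sign in the sorts. Ccr6 was higher in Peyer's patch among ZsGreen- cells, by 0.71 ± 0.20 on the log2 scale (SE, adjusted p = 0.0714, 0.0409 in DESeq2 and 0.0172 in edgeR without Peyer's patch ZsGreen- replicate 1), and lower among ZsGreen+ cells, by -0.85 ± 0.18 (adjusted p = 0.0107). For Ccr9 the values were 0.92 ± 0.44 (adjusted p = 0.322) and -1.52 ± 0.36 (adjusted p = 0.0247). Ccr4 was 1.09 ± 0.16 higher in Peyer's patch among ZsGreen- cells (adjusted p = 0.00198), a 2.13-fold difference, and -0.19 ± 0.15 among ZsGreen+ cells (adjusted p = 0.477). The ZsGreen+ calls were lost without Peyer's patch ZsGreen+ replicate 1 (adjusted p = 0.0725 for Ccr6 and 0.0896 for Ccr9) and without spleen ZsGreen+ replicate 1 (0.124 and 0.123). Leaving out Peyer's patch ZsGreen+ replicate 2 ended the Ccr6 call (0.0727) and leaving out spleen ZsGreen+ replicate 2 the Ccr9 call (0.141). The Ccr9 log2 fold change was -0.93 without Peyer's patch ZsGreen+ replicate 1 and -2.41 without replicate 2.

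Cxcr4 was not separated by tissue, with differences of -0.54 ± 0.57 on the log2 scale (SE, adjusted p = 0.741) in ZsGreen- cells and -0.31 ± 0.57 (adjusted p = 0.793) in ZsGreen+ cells. In the latter the difference was 0.63 in experiment 1 and -1.16 in experiment 2.

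Levels also differed between the experiments. Ccr6 was higher in experiment 2 than in experiment 1 by 1.97 to 2.84 on the log2 scale over the 4 groups, Cxcr6 by 1.82 to 3.07, Cxcr3 by 1.27 to 2.32 and Ccr9 by 0.53 to 2.42. Cxcr4 was lower in experiment 2 by 0.79 to 1.88 in 3 groups and differed by 0.0081 in spleen ZsGreen+ cells. Ccrl2 was higher in experiment 2 in spleen, by 2.80 in ZsGreen- and 1.73 in ZsGreen+ cells. Ccr4 was the steadiest, with differences of -0.78 to -0.23. The median size of this difference over all genes was 1.004 to 1.11 by group. The experiment was a term of the model, and without it edgeR called 0 of the 7 and 0 of all genes in each of the 5 comparisons, with 0 to 2 of the 7 at an unadjusted p under 0.05.

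Levels were also divided by exon length, which does not correct shifts between experiments that differ by gene. In Peyer's patch ZsGreen- cells Cxcr4 had place 1 among the 7 in experiment 1 and place 5 in experiment 2. The order of the receptors is therefore given by library. In CPM per kilobase of exon, Cxcr6 was the most abundant of the 7 in spleen ZsGreen+ cells in both experiments, at 112 and 699. Cxcr4 was the most abundant in the other 3 libraries of experiment 1, at 72.5 to 108. In experiment 2, Cxcr3 led in both ZsGreen- libraries, at 75.8 in Peyer's patch and 175 in spleen, and Cxcr6 and Ccr6 stood level in Peyer's patch ZsGreen+ cells at 127 and 126. Ccr9 or Ccrl2 was last in every library, at 0.151 to 4.95. The merged exon length of Ccr9, 10260 bases, lowers its value on this scale.

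**Figure D3:**
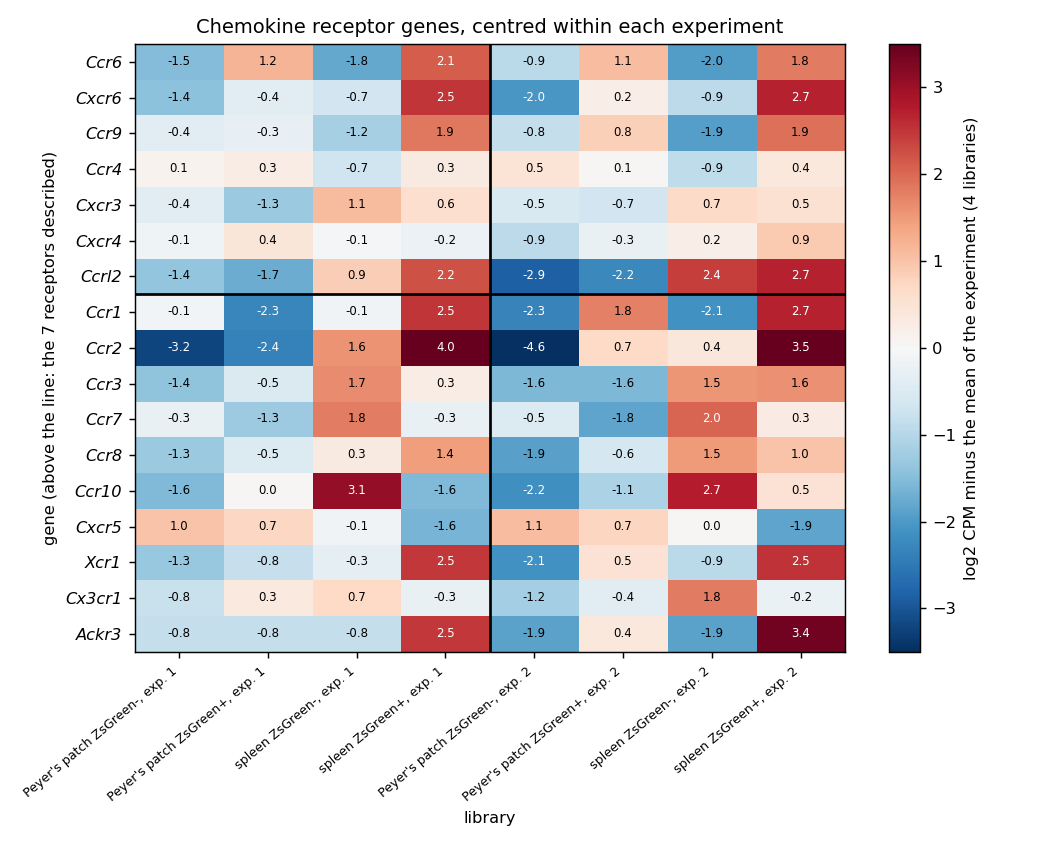
Log2 CPM of the 7 receptors (above the line) and of 10 other chemokine receptor genes tested, each centred on the mean of its experiment, in the 8 libraries. Ccr6, Cxcr6, Ccr9 and Ccrl2 share their highest value in spleen ZsGreen+ cells with Ccr1, Ccr2, Xcr1 and Ackr3. Ccr7 is highest in spleen ZsGreen- and Cxcr5 in Peyer's patch ZsGreen- cells in both experiments.

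Of 18 other chemokine and related receptors, 11 were in both tables and 10 were tested. None was called by the sort in Peyer's patch with edgeR, where 3 had an unadjusted p under 0.05 and 1 was lower by DESeq2. Of all 14418 genes tested, at least 826 and fewer than 1189 had an unadjusted p under 0.05 in that edgeR comparison. Counts at this cut-off, here and for the lists below, are to be read against that background. In spleen, 2 of the 10 receptors were called higher in ZsGreen+ cells and 2 lower, against 4.53% and 4.09% of all genes, and DESeq2 called 1 and 3. Xcr1 rose by 3.25 ± 0.58 on the log2 scale (SE, adjusted p = 0.00541). Ackr3, a scavenger of CXCL12, had 84 counts in spleen ZsGreen+ and 0 in spleen ZsGreen- libraries, at least 23.2-fold higher against a floor of 3 counts over the group. Ccr7, which leads T cells to the T zone, fell by 1.88 ± 0.24 (adjusted p = 0.00228), and Cxcr5, the follicle-homing receptor whose protein was part of the sort gate, fell by 1.69 ± 0.17 (adjusted p = 0.000127).

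Between tissues the same list had 1 gene called higher and 3 lower in Peyer's patch ZsGreen- cells, against 1.82% and 3.68% of all genes. In ZsGreen+ cells it had 1 higher and 4 lower, against 5.51% and 7.17%. Cxcr5 was the higher one each time, with log2 fold changes of 1.08 ± 0.16 (adjusted p = 0.00229) and 2.47 ± 0.17 (adjusted p = 1.07e-05). Ccr7 and Ccr8 were lower in both, Ccr10 in ZsGreen- cells, and Xcr1 and Ackr3 in ZsGreen+ cells.

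Among the ligands of the 7 receptors, 6 of 10 were in both tables and 5 were tested. Ccl20, the ligand of CCR6, rose in spleen ZsGreen+ cells, from 0.0535 to 0.532 CPM in experiment 1 and from 0.46 to 13.6 CPM in experiment 2 (log2 fold change 4.45 ± 0.89, SE, adjusted p = 0.012). It was lower in Peyer's patch than in spleen among ZsGreen+ cells, by -3.07 ± 0.73 (adjusted p = 0.0178). Ccl22, a ligand of CCR4, had 46 counts in Peyer's patch ZsGreen- and 0 in spleen ZsGreen- libraries, at least 14.1-fold higher against the same floor. No ligand was called by the sort in Peyer's patch with edgeR or DESeq2, and 1 had an unadjusted p under 0.05 in edgeR.

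All 9 transcription factors given here as known to act on these receptors were tested. None was called by the sort in Peyer's patch with edgeR, where 6 had an unadjusted p under 0.05 and 1 was lower by DESeq2. In spleen ZsGreen+ cells Rora, a nuclear receptor of Th17 and innate lymphoid cells, rose by 1.66 ± 0.27 (SE, adjusted p = 0.0113), and Klf2, which keeps T cells circulating, fell by 1.09 ± 0.18 (adjusted p = 0.00381). Peyer's patch ZsGreen- cells had 5 of the 9 called lower than spleen, against 3.68% of all genes: Klf2, Rara, Gata3, Tbx21 and Rora. T-bet (Tbx21), known to induce Cxcr3, was at 1.80 to 9.53 CPM in Peyer's patch and 17.9 to 42.2 CPM in spleen, with log2 fold changes of -2.03 ± 0.36 (adjusted p = 0.0149) in ZsGreen- and -2.37 ± 0.39 (adjusted p = 0.00504) in ZsGreen+ cells. In ZsGreen+ cells those 5 and Runx3 were lower in Peyer's patch, and Bcl6 and Maf were higher, against 7.17% lower and 5.51% higher of all genes.

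Genes of receptor signalling and desensitisation formed the longest list. Of 36 listed, 35 were tested, and none was called in Peyer's patch with edgeR or DESeq2, while 5 had an unadjusted p under 0.05 in edgeR. In spleen ZsGreen+ cells 2 of the 35 were called higher and 0 lower, against 4.53% and 4.09% of all genes. Rgs1, which shortens chemokine receptor signals, rose by 1.81 ± 0.30 (SE, adjusted p = 0.0097), and the G protein subunit Gng2 rose by 0.55 ± 0.14 (adjusted p = 0.0287). Peyer's patch had 1 called higher and 5 lower in ZsGreen- cells, against 1.82% and 3.68% of all genes. In ZsGreen+ cells it had 1 higher and 6 lower, against 5.51% and 7.17%. Rgs10 was the higher one in both, at 1.07 ± 0.19 (adjusted p = 0.00616) and 1.57 ± 0.19 (adjusted p = 0.000288). Tpst2, a sulfotransferase that modifies chemokine receptors, was lower in both, by -1.07 ± 0.16 (adjusted p = 0.00212) and -1.59 ± 0.16 (adjusted p = 8.39e-05), as was Rasgrp2, which activates the integrin switch Rap1, by -1.81 ± 0.20 (adjusted p = 0.000406) and -2.11 ± 0.20 (adjusted p = 7.83e-05).

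In the deposited mm39 annotation 4 of the 7 genes lie on chromosome 9: Ccrl2 at chr9:110883554-110886588 (minus strand), Ccr4 at chr9:114319384-114333985 (minus), Ccr9 at chr9:123507504-123613396 (plus) and Cxcr6 at chr9:123635540-123640826 (plus). Ccr6 lies at chr17:8454875-8475974 (plus), Cxcr4 at chr1:128515936-128520031 (minus) and Cxcr3 at chrX:100775141-100777876 (minus). Ccr9 and Cxcr6 are 22.1 kb apart and share a receptor gene cluster with Xcr1, Ccr1 and Ccr3. Within 200 kb of the starts of the 7 genes lay 46 other genes, of which 32 were tested.

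None of these neighbours was called by the sort in Peyer's patch with edgeR or DESeq2. In edgeR 8 of them had an unadjusted p under 0.05, as had at least 826 and fewer than 1189 of all 14418 genes tested. In spleen 4 were called higher in ZsGreen+ cells (Xcr1, Lztfl1, Mpc1 and Nhsl2) and 1 lower (Als2cl), against the 4.53% and 4.09% of all genes given above. Lztfl1, beside Ccr9, rose by 1.11 ± 0.25 (SE, adjusted p = 0.0177), and Xcr1 lies 55.6 kb from the Cxcr6 start. Fyco1, whose span on the other strand contains all of Cxcr6, had log2 fold changes of 0.12 ± 0.22 (adjusted p = 0.946) in Peyer's patch and 0.0028 ± 0.23 (adjusted p = 0.997) in spleen. The labels name a poly A or a non-directional preparation without saying which library had which, and reads of overlapping genes cannot be told apart without strand. The deposited span of Ccr9 overlaps that of Lztfl1 on the opposite strand by 23282 bases. In the GENCODE annotation of GRCm38, 18.8% of the Ccr9 exon length is shared with another gene on the opposite strand, AC165425.1, and none of the Cxcr6 exon length.

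**Figure D4:**
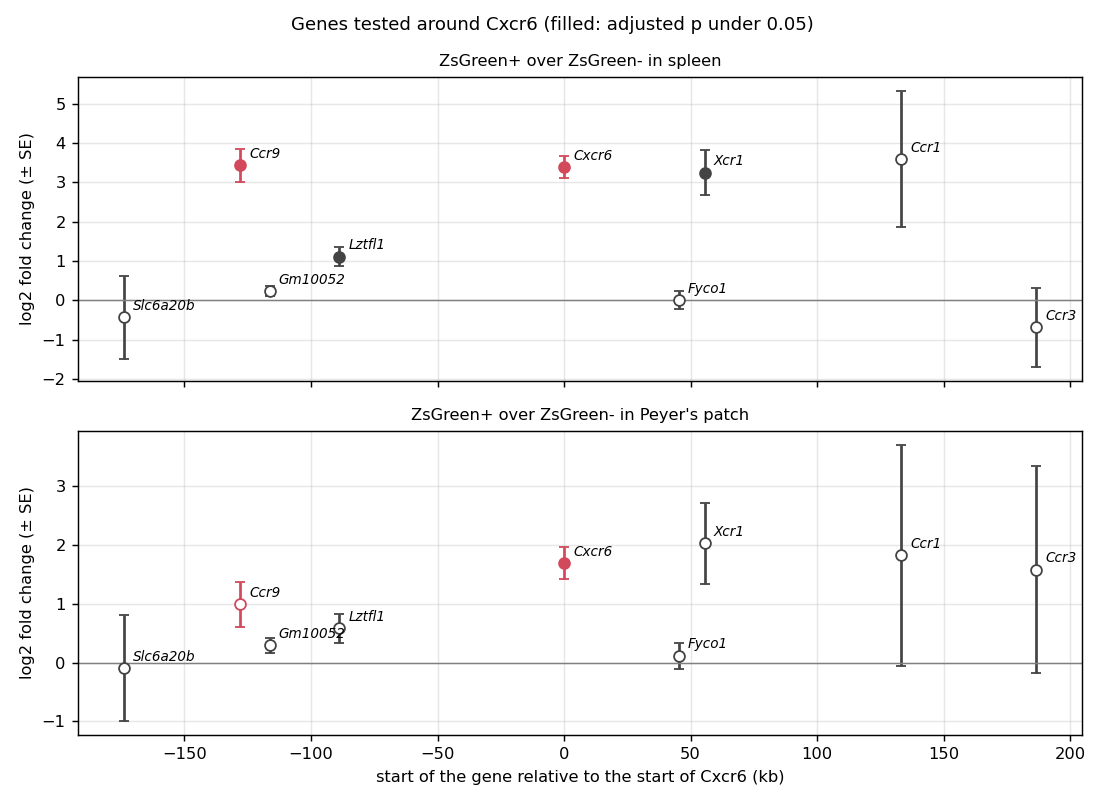
Log2 fold change (± SE) of ZsGreen+ over ZsGreen- cells for the genes tested around Cxcr6, against the distance of their starts from the start of Cxcr6 in kilobases, in spleen (top) and Peyer's patch (bottom). Ccr9, Lztfl1, Cxcr6 and Xcr1 are filled (adjusted p under 0.05) in spleen and Cxcr6 alone in Peyer's patch, while Fyco1 lies at 0.0028 and 0.12.

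The genes with the most similar pattern were sought among 8966 genes with a mean of at least 10 CPM, by Pearson r over the 8 libraries of log2 CPM centred on each experiment. The 8 libraries form 4 groups of 2 and share their experiments. Thus r is given as a description, and it takes no account of the size of a difference. Ccr6 was nearest to Tdrkh (r = 0.988), Adam12 (0.987) and Osbpl3 (0.981). Adam12 had fitted sort differences of 2.199 in Peyer's patch and 3.97 in spleen on the log2 scale, and Osbpl3 of 0.46 and 0.65. Cxcr6 was nearest to Acot9, Igbp1 and Lilrb4a (0.994 to 0.993). Lilrb4a, an inhibitory immunoglobulin-like receptor, had sort differences of 2.09 and 4.24, while those of Acot9 were 0.45 and 1.02 and of Igbp1 0.18 and 0.53. For Ccr9 the nearest were Dgat1, Lamc1 and Slc31a1 (0.990 to 0.989), and for Ccr4 they were Ubxn11 (0.986), Adgrg5 (0.979) and Tardbp (0.978). Cxcr3 was nearest to Srpk1, Flii and Gm11346 (0.992 to 0.983), Cxcr4 to Vasn, Traf3 and Ppard (0.998 to 0.952), and Ccrl2 to Tuba1a, Ptma and Plek (0.996 to 0.992). Plek, like Ccrl2, was lower in Peyer's patch, by -3.19 in ZsGreen- and -3.58 in ZsGreen+ cells.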

How the data were processed

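The authors deposited a table of estimated counts per gene (expected counts, not all whole) and a table of normalized signal for each of 2 experiments, with 4 libraries each. Per the submitters' processing notes the tools were STAR, Partek and DESeq2 and the genome build was mm39. Versions: not given in the sources used here. In every library the deposited signal equalled the estimated counts multiplied by 1 constant per library (0.765 to 1.58).

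Estimated counts were rounded. The 16735 genes in both tables (18114 and 20397) were used, and filterByExpr by group (minimum count 10, minimum total 15) left 14418. edgeR 4.0.16 in R 4.3.3 fitted a robust quasi-likelihood model with TMM factors of 0.656 to 1.24, a mean for each of 4 groups and an experiment term (3 residual degrees of freedom), with two-sided F tests and Benjamini-Hochberg adjustment. The SE was derived from F. Replicate numbers pair the libraries because the labels tie each number to an experiment, and deviations from group means correlated across genes in each of the 6 pairs of groups (r at least 0.825, at most 0.867). Differences within an experiment are of log2 CPM with a prior count of 2. The fit was also run on counts simulated with its own dispersions. Those counts held no gene-specific shift between experiments, so that run does not test the calls under such shifts. DESeq2 1.42.0, limma 3.58.1 on log2(signal + 1), RLE factors, other filters, no experiment term and leaving out each library were alternatives.

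The 7 genes, the lists of related genes and markers, and the tests were chosen with earlier results of these data known. Of each list, genes past the threshold were named by smallest p, up to 6 in a comparison, and not every such gene is given with values. A few listed genes are not reported here and were left out of the lists' counts and sums. RefSeq promoters (GRCm38.p6) matched all 7 symbols. Exon lengths are GENCODE M21's on GRCm38, and gene coordinates are the deposited mm39 ones.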

Additional observations from a re-analysis of the deposited data

Results flagged for a closer look

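For 3 receptors the tissue difference had opposite signs in ZsGreen- and ZsGreen+ cells in both experiments. In edgeR the tissue difference in ZsGreen- cells was not called for Ccr6 (adjusted p = 0.0714) or Ccr9 (adjusted p = 0.322). For Ccr4 the difference in ZsGreen+ cells was -0.19 and not called (adjusted p = 0.477). The sort difference of Peyer's patch minus that of spleen was -1.56 for Ccr6 (log2 scale, edgeR adjusted p = 0.0658), -2.44 for Ccr9 (adjusted p = 0.194) and -1.28 for Ccr4 (adjusted p = 0.0605). In edgeR these tests of the difference itself missed the threshold. In DESeq2, which called more of all genes than edgeR in both sorts, they passed it, with adjusted p of 0.000398, 0.0105 and 0.00119. The tests ask whether the tissue differences are unequal and not whether the sign reverses.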

How the results depend on the processing

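With no replicate block (the experiment term left out), the number of receptors called fell to 0 in each comparison: from 2 in the Peyer's patch sort, 4 in the spleen sort, 3 between tissues in ZsGreen- cells and 5 in ZsGreen+ cells. The count in the Peyer's patch sort was 1 with RLE factors, without a filter, with a stricter filter (50 counts in 2 libraries) and with limma, Cxcr6 being the call lost, and it ranged from 1 to 3 with 1 library left out. The spleen sort gave 4 in each of those 8 fits. For the difference between the sorts, 0 became 4 with DESeq2 and 2 without a filter, and ranged from 0 to 2 with a library left out. Between tissues, ZsGreen- cells gave 5 with DESeq2 and 2 to 4 with a library left out, and ZsGreen+ cells 3 to 5.

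The number of all genes called moved with the setting too. In the Peyer's patch sort it was 63 in the main fit, 60 with RLE factors and 59 with limma. It was 77 without a filter and 57 with the stricter filter. With a library left out it also differed, so the ranges of receptor counts do not measure the receptors alone. Of the single-receptor log2 fold changes under the 6 other settings, 182 kept their side of the threshold, 18 lost it, 8 gained it and 2 changed sign, namely Ccrl2 in the Peyer's patch sort at 0.18 with no replicate block and 0.11 with limma. With a library left out some values lost the threshold and others gained it, and 12 changed sign, all in comparisons not called in the main fit. Their ranges were -1.17 to 1.20 for Ccrl2 and -0.38 to 0.078 for Ccr4 in the Peyer's patch sort, -0.50 to 0.995 for Cxcr4 in the spleen sort, -1.94 to 0.42 for Ccrl2, -0.69 to 0.22 for Cxcr3 and -0.39 to 1.09 for Cxcr4 in the difference of the sorts, and -1.01 to 0.48 for Cxcr4 between tissues in ZsGreen+ cells. Depth limits Ccrl2 in Peyer's patch, where libraries held 4 to 10 counts.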
